A study of Mus musculus with 9 samples.

Results

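A set of 10 genes of the cartilage and tendon lineages was followed through cultured AdvSca1-SM cells, the progenitor cells of the arterial adventitia that derive from smooth muscle and carry the surface protein Sca1. They were *Sox9*, *Sox5*, *Sox6*, *Scx* and *Mkx*, which encode transcription factors, and *Acan*, *Comp*, *Hapln1*, *Cilp* and *Tnmd*, which encode matrix or matrix-related proteins. All 10 symbols were found among the 55416 genes of the count table, and 9 of the 10 passed the filter on low counts, among 14879 genes tested in all. The members were chosen by name with their levels over the same 3 Stem, 3 TGF-β and 3 Both libraries already known, and these values count as having selected them, so their values and fold changes are given as a description without p-values. Cells had been sorted as Sca1+ YFP+ from the carotid arteries and from the arch and descending part of the aorta of pooled 8-week-old SM22α-Cre-YFP mice on a C57BL/6 background. SM22α-Cre marks mature smooth muscle cells and every cell derived from them, so the sort may also have held rare Sca1+ cells of the media.

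RNA-Seq held 9 libraries, 3 per group, all from cells given 0.1% DMSO for 72 h. The Stem group stayed in stem cell medium, which is described for maintenance with 10% FBS, 1 ng/mL bFGF and 5 ng/mL EGF. The growth label, worded alike for all samples, gives a 24 h growth arrest in 0.1% FBS before treatment, and whether it was applied to Stem cells is not said. The TGF-β group then received 5 ng/mL TGF-β1 in DMEM with 0.1% FBS, and the Both group received the same with 50 μM PFI-3, a compound directed at the Brg1 bromodomain, the acetyl-lysine reader of this chromatin remodeler. Medium, serum, any difference in growth arrest and TGF-β1 change together between Stem and TGF-β and cannot be told apart, whereas PFI-3 is what separates Both from TGF-β. Library totals ran from 35686291 to 47741128 counts, and replicate libraries correlated over the tested genes with a Spearman rho of 0.995 or more. The 3 libraries of a group are described as independent replicates without naming separate animals, so error terms measure the spread between these libraries. Of 6 adventitial progenitor markers 5 were tested, and in TGF-β over Stem 4 fell, among them *Ly6a* (Sca1) from 7635 ± 971 to 941 ± 133 and *Pdgfra* from 45657 ± 2845 to 5438 ± 283 normalized counts (SD, n = 3), while *Pi16* rose from 508 ± 22.8 to 5771 ± 158.

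Cartilage and tendon both arise from mesenchymal progenitors. SOX9 switches on the cartilage program, and SOX5 and SOX6 act beside it on the enhancers of cartilage matrix genes. Scleraxis (*Scx*) and Mohawk (*Mkx*) play the matching part in tendon, where tenomodulin (*Tnmd*) is a late marker. TGF-β signaling is known to take part in both lineages, and vessel walls can form cartilage-like tissue in disease.

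The 10 genes took 3 courses. *Scx*, *Cilp* and *Acan* had few or no counts in Stem, *Sox6* was low there with 19, 17 and 14 counts, and each was higher in every TGF-β library. *Sox9*, *Comp*, *Mkx* and *Tnmd* were already present in Stem and differed from TGF-β by less than 2-fold in the group means. *Sox5*, also present in Stem, was lower in TGF-β, at 57.3% of its Stem mean, likewise less than a 2-fold difference. With PFI-3, *Acan* was at 27.1% and *Tnmd* at 24.6% of the TGF-β mean, whereas *Scx* was at 83.2% and *Mkx* at 128%. *Hapln1* was not detectable beyond a few counts in any library. All levels below are normalized counts, which are counts scaled by TMM factors to a mean library of 41184338. The detection floor of 3 counts is worth between 2.63 and 3.26 normalized counts and, like every counting limit here, covers counting error only. In bulk RNA, fewer cells expressing a gene and less RNA per cell cannot be told apart.

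**Figure D1:**
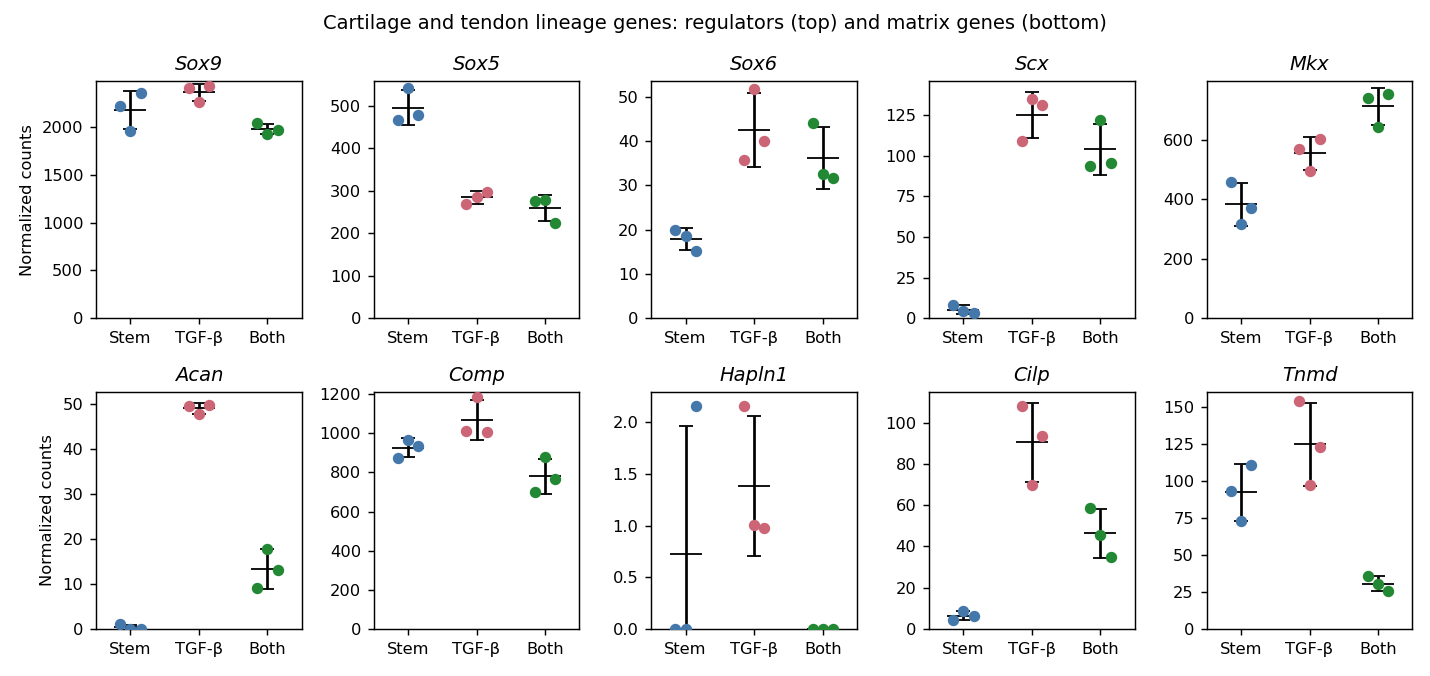
Normalized counts (vertical axes, each from 0 on its own scale) of the 10 genes in every library of the Stem, TGF-β and Both groups; points are single libraries, horizontal bars are group means and vertical bars the SD of 3 libraries. The TGF-β points of *Acan*, *Cilp*, *Scx* and *Sox6* all sit above their Stem points, and the Both points of *Tnmd* and *Acan* all sit below their TGF-β points, for *Tnmd* at 25.5 to 36.0 normalized counts.

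The regulators of cartilage did not move as 1 group. *Sox9*, the master regulator of chondrocyte fate, had 2217, 1960 and 2355 normalized counts in the Stem libraries, 2404, 2262 and 2429 in TGF-β, and 2039, 1928 and 1969 in Both. The Stem and TGF-β values overlapped, and all 3 Both libraries were below all 3 TGF-β libraries. The fitted log2 fold change was 0.12 ± 0.0608 (SE) for TGF-β over Stem, with a 95% interval from -0.01 to 0.25. For Both over TGF-β it was -0.26 ± 0.0607 (SE), and the interval from -0.39 to -0.12 held no 2-fold change. When libraries were scaled by their totals, the TGF-β over Stem value of *Sox9* became 0, with the median of all genes at -0.12.

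*Sox5*, whose product lacks an activation domain of its own and works with SOX9, was the only member with a TGF-β mean below its Stem mean. It had 467, 542 and 477 normalized counts in the Stem group, 269, 285 and 298 in TGF-β, and 276, 279 and 223 in Both. Every Stem library was above every treated library, and the TGF-β and Both values overlapped. The log2 fold change was -0.80 ± 0.0972 (SE) in TGF-β over Stem and -0.13 ± 0.101 (SE) in Both over TGF-β, the latter with a 95% interval from -0.35 to 0.09. In the annotation at hand, *Sox5* shares 1330 exonic bases with *Sox5os1* on the other strand, and *Sox5os1* was at 0 in all 9 libraries. The 250 bases before the RefSeq start of *Sox5* are shown because it was the member lower in TGF-β, and they lie on GRCm38.p6 at chr6:143947107-143947356, minus strand. Capitals mark ACAATG, a SOX-type motif starting 154 bases before the start, and CAGAC, a SMAD-type motif starting 32 bases before it.
Sox5 promoter: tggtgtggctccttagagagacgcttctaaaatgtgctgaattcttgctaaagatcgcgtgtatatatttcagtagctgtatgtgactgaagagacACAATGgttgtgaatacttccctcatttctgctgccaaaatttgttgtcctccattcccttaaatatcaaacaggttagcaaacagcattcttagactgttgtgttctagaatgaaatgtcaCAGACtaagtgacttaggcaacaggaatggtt
ACAATG was present on either strand in 10.7% and CAGAC in 42.2% of all 32851 RefSeq windows of this length, so both matches are a description of the sequence and not of binding.

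*Sox6*, the close relative of *Sox5*, was present at a much lower level and took the opposite course. It had 19.9, 18.5 and 15.1 normalized counts in the Stem group, 35.6, 51.7 and 40.0 in TGF-β, and 44.1, 32.6 and 31.6 in Both. Every treated library was above every Stem library, and the TGF-β and Both values overlapped. The TGF-β mean was 2.38 times the Stem mean, with a log2 fold change of 1.25 ± 0.243 (SE). For Both over TGF-β the value was -0.23 ± 0.209 (SE), with a 95% interval from -0.69 to 0.22. Its Both over Stem value of 1.01 stood just past the log2 minimum of 1 used for calls, and it was 0.85 without Both replicate 1 and 0.91 without Stem replicate 3.

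The tendon regulators were both higher in TGF-β than in Stem, from very different starting levels. *Scx*, the basic helix-loop-helix factor that marks tendon progenitors, had 8.38, 4.35 and 3.25 normalized counts in the Stem group, 109, 135 and 131 in TGF-β, and 93.6, 122 and 95.7 in Both. No Stem library came near a treated library, and the TGF-β and Both values overlapped. The ratio of the means of TGF-β and Stem was 23.5, on Stem values that rest on 8, 4 and 3 counts. The log2 fold change was 4.51 ± 0.268 (SE) for TGF-β over Stem and -0.27 ± 0.155 (SE) for Both over TGF-β, the latter with a 95% interval from -0.61 to 0.07. *Scx* lies inside *Bop1* on the opposite strand without shared exonic bases, and *Bop1* had log2 fold changes of 0.18 and -0.12 in the same comparisons.

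*Mkx*, a homeobox factor needed for mature tendon collagen, was the only member whose Both mean was above its TGF-β mean. It had 460, 317 and 372 normalized counts in the Stem group, 570, 494 and 602 in TGF-β, and 741, 642 and 756 in Both. The 3 groups did not overlap. The log2 fold change was 0.53 ± 0.123 (SE) for TGF-β over Stem, 0.36 ± 0.116 (SE) for Both over TGF-β and 0.90 for Both over Stem, the last of these 1.06 without Stem replicate 1. In the annotation at hand, *Mkx* shares 201 exonic bases with *AC148004.2* on the same strand, and *AC148004.2* had a mean of 0 in each group.

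**Figure D2:**
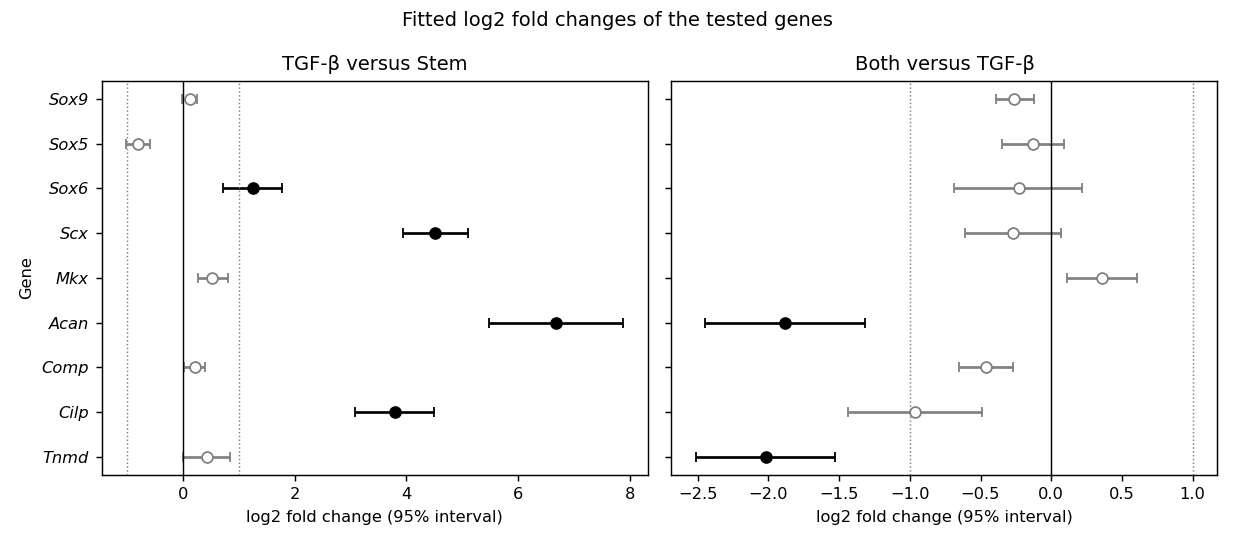
Fitted log2 fold changes (horizontal axes) of the 9 tested genes for TGF-β over Stem (left) and Both over TGF-β (right) with 95% intervals; filled points passed an adjusted p of 0.05 and the log2 minimum of 1 marked by the dotted lines. *Sox6*, *Scx*, *Acan* and *Cilp* are filled at left and *Acan* and *Tnmd* at right, where *Mkx* alone lies above 0, at 0.36.

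The matrix genes differed from each other in both comparisons. *Acan* encodes aggrecan, the large proteoglycan that holds water in cartilage. It had 1, 0 and 0 counts in the Stem libraries, 46, 47 and 51 in TGF-β, and 10, 18 and 15 in Both, which are 1.05, 0 and 0, then 49.6, 47.7 and 49.8, and then 9.0, 17.8 and 13.2 normalized counts. The 3 groups did not overlap, Stem was at the limit of detection, and TGF-β had a mean of 49.0 ± 1.19 (SD, n = 3). Against a floor of 3 counts per library, the mean of *Acan* in TGF-β was at least 15-fold higher than in Stem, and its mean in Both at least 4.08-fold higher. These limits bound the Stem side only and take the treated means as they stand, although the lowest Both library was at 9.0. Between TGF-β and Both the log2 fold change was -1.88 ± 0.259 (SE), with a 95% interval from -2.45 to -1.32. *Tnmd* encodes tenomodulin, a membrane protein of mature tendon and ligament. It had 93.2, 72.8 and 111 normalized counts in the Stem group, 154, 97.4 and 123 in TGF-β, and 36.0, 30.6 and 25.5 in Both. The Stem and TGF-β values overlapped, and every Both library was below every library of the other groups. The log2 fold change was 0.43 ± 0.194 (SE) for TGF-β over Stem and -2.02 ± 0.224 (SE) for Both over TGF-β, with a 95% interval from -2.51 to -1.53 for the latter. In Both, *Tnmd* was at 33.2% of its Stem mean, a log2 fold change of -1.59 with a 95% interval from -2.10 to -1.08.

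The sequences before the RefSeq starts of *Acan* and *Tnmd* are shown because these were the members with the largest fitted differences between TGF-β and Both. They lie on GRCm38.p6 at chr7:79052976-79053225 for *Acan* and chrX:133850758-133851007 for *Tnmd*, both on the plus strand and both ending at the base before the start.
Acan promoter: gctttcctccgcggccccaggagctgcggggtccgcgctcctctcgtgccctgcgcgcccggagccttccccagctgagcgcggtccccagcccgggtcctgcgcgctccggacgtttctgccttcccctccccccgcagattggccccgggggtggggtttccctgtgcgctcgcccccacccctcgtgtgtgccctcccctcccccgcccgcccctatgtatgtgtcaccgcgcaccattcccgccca
Tnmd promoter: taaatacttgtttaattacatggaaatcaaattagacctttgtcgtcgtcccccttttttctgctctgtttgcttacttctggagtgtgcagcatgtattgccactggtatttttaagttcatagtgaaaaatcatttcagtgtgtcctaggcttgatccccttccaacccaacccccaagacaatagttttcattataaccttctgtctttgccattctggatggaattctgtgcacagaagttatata
The windows differ in base composition, with 74.4% G and C in *Acan* and 38.4% in *Tnmd*. Neither held ACAATG, the E-box CATCTG, or the SMAD-type motifs GTCTAGAC and CAGAC on either strand, which says only that these letters are absent from these 250 bases. CATCTG was present in 14.4% and GTCTAGAC in 0.167% of all windows, and neither SMAD-type motif contains the other. RefSeq windows were used for 6 of the 10 genes, namely *Sox5*, *Sox6*, *Acan*, *Hapln1*, *Cilp* and *Tnmd*, with 6 windows for *Sox6*. ACAATG was found in windows of 2 of these genes, CATCTG in 1, CAGAC in 3 and GTCTAGAC in 0. No window was used for *Sox9*, *Comp*, *Scx* and *Mkx*. Windows on 1 chromosome were left out after matching, so an unused window need not mean that none was matched.

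*Cilp*, which encodes an intermediate layer protein of cartilage that is known to bind TGF-β1, had 4.19, 8.69 and 6.49 normalized counts in the Stem group, 108, 70.0 and 93.7 in TGF-β, and 58.5, 45.4 and 35.1 in Both. The groups did not overlap, although TGF-β replicate 2 was nearer to Both replicate 1 than to the other TGF-β libraries. The ratio of the means was 14.0 for TGF-β over Stem, with a log2 fold change of 3.79 ± 0.322 (SE). For Both over TGF-β the log2 fold change was -0.96 ± 0.217 (SE), just short of the minimum of 1, and leaving out TGF-β replicate 2 gave -1.12, and leaving out Both replicate 1 gave -1.17.

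*Comp*, which encodes a pentameric protein that binds collagen in cartilage and tendon, had 872, 967 and 937 normalized counts in the Stem group, 1014, 1188 and 1008 in TGF-β, and 699, 878 and 765 in Both. TGF-β was above Both and Stem without overlap, by small margins, and Both and Stem overlapped. The log2 fold change was 0.21 ± 0.0870 (SE) for TGF-β over Stem and -0.46 ± 0.0872 (SE) for Both over TGF-β, so that the Both mean of 781 ± 90.9 was below the Stem mean of 925 ± 48.5 (SD, n = 3). *Hapln1*, the link protein that fastens aggrecan to hyaluronan, had 0, 0 and 2 counts in Stem, 2, 1 and 1 in TGF-β, and 0, 0 and 0 in Both. No library exceeded the floor of 3 counts, so no fold is given and differences in *Hapln1* were not detectable at this depth.

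Compared per kilobase of exon, *Sox9* was the most abundant of the 10 genes in every group and *Comp* came next. Per kilobase, *Sox9* had 527 ± 48.7 normalized counts in the Stem group, 572 ± 21.6 in the TGF-β group and 478 ± 13.7 in the Both group (SD, n = 3), against 312, 361 and 263 for *Comp*. In Stem the order went on with *Mkx* at 93.5 and *Tnmd* at 68.4, which overlapped, then *Sox5* at 34.5. *Scx*, *Cilp* and *Sox6* were at 2.65, 1.52 and 1.20 in Stem, where each overlapped the next, and *Hapln1* and *Acan* were at the floor. In TGF-β, *Scx* at 62.2 and *Cilp* at 21.3 stood above *Sox5* at 19.7, with overlap between *Cilp* and *Sox5*, and *Acan* at 6.57 stood above *Sox6* at 2.86. In Both, *Scx* at 51.8 stood above *Tnmd* at 22.7, and *Tnmd* overlapped *Sox5*. Among the SOX genes, *Sox6* was therefore far below *Sox9* per kilobase in each group, at 2.43 in Both.

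**Figure D3:**
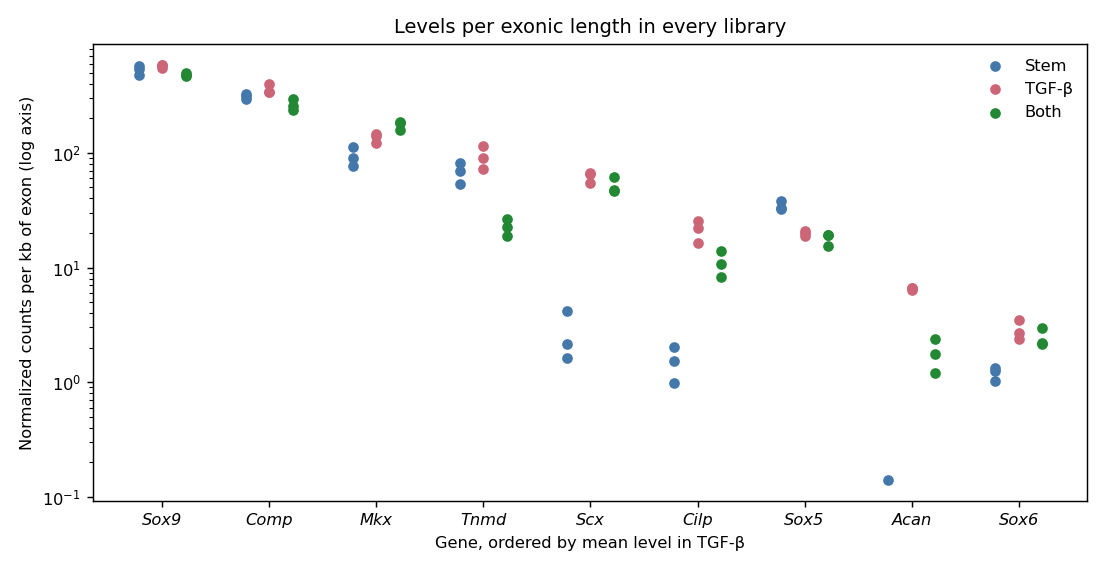
Normalized counts per kilobase of exon (vertical axis, log scale) of the 9 tested genes in every library, ordered by their mean in TGF-β; points are single libraries, and libraries at 0, of which *Acan* had 2 in Stem, are not drawn. *Sox9* is highest in all groups, *Scx* and *Cilp* move from the lower part of the Stem order to the middle of the TGF-β order, and *Tnmd* has its lowest level in Both, at 22.7.

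Calls were made in 1 edgeR fit of all 9 libraries at an adjusted p of 0.05 (Benjamini-Hochberg over the 14879 genes) and a log2 fold change outside -1 to 1. Between TGF-β and Stem, 4 of the 9 tested members were called, where 25.1% of all tested genes were called. These were *Sox6*, *Acan*, *Cilp* and *Scx*, all higher in TGF-β, where 10.6% of all tested genes were called higher and 14.5% lower. Between Both and TGF-β, 2 of the 9 were called, *Acan* and *Tnmd*, where 0.632% of all tested genes were called, and both were lower in Both, where 0.470% were called lower and 0.161% higher. Between Both and Stem, 5 of the 9 were called, where 22.8% of all tested genes were called; *Tnmd* was lower (13.2% of all) and *Sox6*, *Acan*, *Cilp* and *Scx* were higher (9.55% of all). Nothing is read from these counts, because the members were listed with these comparisons known. In addition, *Acan*, *Cilp* and *Scx* had 0 Stem libraries above the filter's minimum of 0.238 CPM, so they were tested through their treated libraries alone. Without the fold-change minimum, 7 of the 9 had an adjusted p below 0.05 between TGF-β and Stem, where 75.0% of all tested genes did, with 37.3% higher and 37.7% lower. Between Both and TGF-β 5 of the 9 did, where 8.92% of all did. Those 5 were *Sox9*, *Acan*, *Comp*, *Cilp* and *Tnmd*, all lower in Both, where 5.38% of all were lower and 3.54% higher. Between Both and Stem 8 of the 9 did, where 73.3% of all did, with 36.6% higher and 36.6% lower. The values did not overlap between TGF-β and Stem in 7 of the 9, where 76.8% of tested genes had none, and between Both and TGF-β in 6 of the 9, where 32.7% had none. Between Both and Stem it was again 7 of the 9, where 74.7% had none. Each pair of these comparisons shares 1 group of libraries, so their counts are not independent of each other.

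The genes whose profiles over the 9 libraries were nearest to a member were found for the 4 members with a mean of at least 100 normalized counts, by the root mean square difference of centred log2 values. For *Sox9* these were *Pknox2*, *Arhgap39* and *Trp53*, at 0.0512, 0.0515 and 0.0524, against a median of 0.243 over 10898 genes. For *Sox5* they were *Mov10*, *Kbtbd7* and *Ttc38*, at 0.0718 to 0.0918 against a median of 0.475. For *Comp* they were *Stard5*, *Serpinb1a* and *Gpc4*, at 0.0664 to 0.0965, and for *Mkx* they were *P3h4*, *Lrrc8d* and *Arfip2*, at 0.0722 to 0.0948. None of these 12 genes was itself a member.

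The 6 lists of related genes, which hold none of the 10 members and share a few genes with each other, were read in the same fit. They too were chosen with earlier results of these data known, so their counts and adjusted p-values are given as a description. Over all tested genes, 10.6% were called higher and 14.5% lower in TGF-β over Stem. In Both over TGF-β the shares were 0.161% and 0.470%. Of the cartilage matrix list, 10 of 22 genes were tested, and 8 rose and 1 fell in TGF-β over Stem, with a median log2 fold change of 1.85 where all genes had a median of 0. *Col2a1*, which encodes the main collagen of cartilage, rose from 33.2 ± 3.73 to 1617 ± 90.3 normalized counts (SD, n = 3), a log2 fold change of 5.60 (edgeR adjusted p = 3.19e-12). *Matn3*, a matrilin of the growth plate, was called higher, with 4.99 ± 1.12 in Stem and 188 ± 30.1 in TGF-β, but like *Cilp2* among the 8 that rose it had 0 Stem libraries above the filter's minimum, so it was tested through its treated libraries alone. *Col11a1*, a chain of the collagen that forms the core of cartilage fibrils, rose from 2788 ± 194 to 34162 ± 272 (log2 fold change 3.62, edgeR adjusted p = 2.83e-13). *Papss2*, which makes the sulfate donor for proteoglycans such as aggrecan, rose with a log2 fold change of 2.46. The 1 that fell was *Prg4*, which encodes the joint lubricant lubricin, from 807 ± 40.5 to 150 ± 15.9 (log2 fold change -2.43); it was chosen after its values were seen. Between Both and TGF-β, *Col2a1* fell from 1617 ± 90.3 to 614 ± 82.7, a log2 fold change of -1.40 (edgeR adjusted p = 3.94e-06), and no other gene of this list was called. Without the fold-change minimum 4 of the 10 tested were lower in Both and 0 were higher, where 5.38% of all tested genes were lower. Beside *Col2a1* these were *Matn3*, *Col11a1* and *Xylt1*, with log2 fold changes of -0.69, -0.45 and -0.29. *Acan* and *Col2a1* were therefore both higher in TGF-β than in Stem and both lower in Both than in TGF-β. Of the 12 genes of this list that were not tested, 5 were at or under the floor in every library.

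The tendon list gave 6 rises and 5 falls among 17 tested of 20 genes in TGF-β over Stem, with a median of -0.25. Of all tested genes, 10.6% were called higher and 14.5% lower in this comparison. The collagen genes *Col5a2*, *Col1a1* and *Col12a1* rose, with log2 fold changes of 3.13, 3.08 and 2.90. *Dcn*, which encodes the small proteoglycan decorin, fell from 16871 ± 3062 to 2532 ± 200 normalized counts, a log2 fold change of -2.74 (edgeR adjusted p = 4.71e-10). Between Both and TGF-β 1 gene of the list was called, *Lum*, which encodes the collagen-binding proteoglycan lumican and fell from 1622 ± 275 to 644 ± 86.1 (log2 fold change -1.33, edgeR adjusted p = 0.000211). Without the fold-change minimum 10 of the 17 were lower in Both, with a median of -0.39 over the list, and 0 were higher. Of all tested genes, 5.38% were lower and 3.54% higher by this rule.

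The chondrogenic regulators, read beside *Sox9*, *Sox5* and *Sox6*, gave 2 rises and 4 falls among 14 tested of 18 genes in TGF-β over Stem, and 0 calls between Both and TGF-β by edgeR's quasi-likelihood test (1 with an adjusted p below 0.05 alone). For this list and the next 2, the shares of all tested genes were 10.6% higher and 14.5% lower in TGF-β over Stem. Between Both and TGF-β, 0.632% of all were called, and 8.92% passed the adjusted p alone. *Gdf6*, a joint-forming growth factor, rose with a log2 fold change of 1.87. *Arid5b*, a known partner of SOX9, fell from 17053 ± 407 to 5003 ± 37.8 normalized counts (log2 fold change -1.77, edgeR adjusted p = 2.12e-12), and *Trps1* fell with a log2 fold change of -1.31. Of the relatives of aggrecan, COMP and the link proteins, 3 rose and 0 fell among 7 tested of 12 genes, among them the COMP relative *Thbs1* with a log2 fold change of 1.40. The other 2 that rose, *Bcan* and *Cilp2*, had 0 Stem libraries above the filter's minimum, so they were tested through their treated libraries alone. Of the enzymes that cleave aggrecan or COMP and their inhibitor, all 11 were tested, and 4 rose and 6 fell in TGF-β over Stem. Among the 4 that rose, *Adamts8* had 0 Stem libraries above the filter's minimum and was tested through its treated libraries alone. *Adamts9*, *Adamts15* and *Mmp3* had log2 fold changes of -5.20, -4.88 and -4.39, whereas *Mmp13*, the main collagenase of cartilage, rose with 2.79. None of these 11 was called between Both and TGF-β, by edgeR's test, and 3 were lower with an adjusted p below 0.05 alone.

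**Figure D4:**
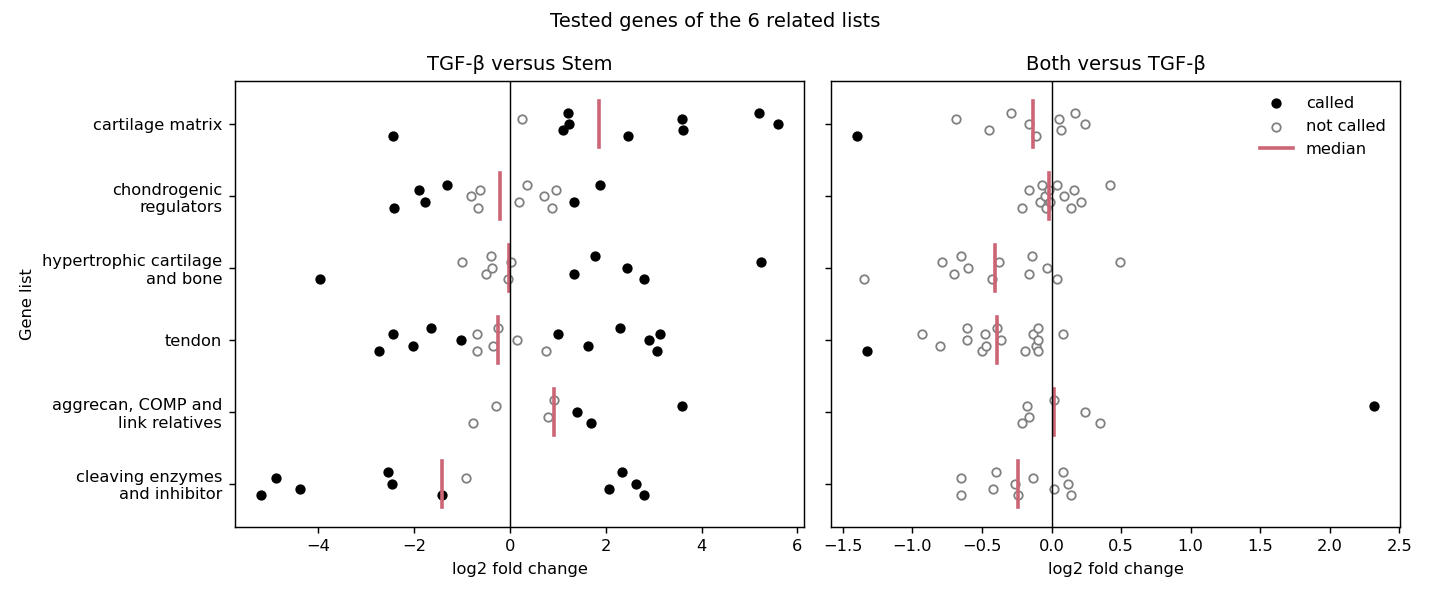
Fitted log2 fold changes (horizontal axes) of the tested genes of the 6 related lists for TGF-β over Stem (left) and Both over TGF-β (right); filled points were called, open points were not, and red bars are list medians. The cartilage matrix list lies mostly above 0 at left, with a median of 1.85, and at right 1 gene of it, *Col2a1* at -1.40, and 1 of the tendon list, *Lum* at -1.33, were called lower.

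Marker lists of other cell types were summed per library as a check on what the cultures held. Of the 6 smooth muscle markers, 2 rose and 1 fell in TGF-β over Stem, with a median log2 fold change of -0.12. *Acta2* rose from 4833 ± 525 to 11215 ± 717 normalized counts and *Tagln* from 3402 ± 368 to 9090 ± 491, whereas *Myh11*, a marker of mature smooth muscle, fell from 263 ± 68.3 to 88.3 ± 19.9. Their sum, which *Acta2* and *Tagln* dominate, was 10606 to 13325 in Stem, against 22688 to 25148 in TGF-β and 17395 to 18334 in Both, and the part of these markers in the levels of the 10 genes was not tested. The Schwann cell list summed to 161 to 212 in Stem, 560 to 657 in TGF-β and 409 to 447 in Both, with its defining genes *Sox10* and *Foxd3* at 0 in every library and *S100b*, a gene that chondrocytes also use, rising from 30.1 ± 4.83 to 398 ± 36.7 (named after its values were seen). Leukocyte markers summed to between 19.6 and 41.9 in Stem, 71.0 and 103 in TGF-β and 152 and 156 in Both, with *Adgre1*, *Itgam* and *Cd3e* at 0. *Csf1r* dominated this sum, with means of 28.5, 76.1 and 138 in the same order, and *Ptprc* was at or under the floor in every group. *Cd68* was low but also higher in the treated groups, at 3.53 ± 3.34, 13.2 ± 2.24 and 14.3 ± 3.04. It had 0 Stem libraries above the filter's minimum. Endothelial markers summed to between 51.8 and 77.1, over genes that moved apart: *Tek* fell from 45.7 ± 7.84 in Stem to 18.3 ± 3.19 in TGF-β, and *Kdr*, at the limit of detection in Stem, was at 26.1 ± 3.86. The adipocyte list reached at most 4.35. Hepatocyte markers, read because an extraction label mentions liver, summed to at most 48.2, with 5 of 6 genes at or under the floor everywhere.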

How the data were processed

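RNA was measured by ribosomal RNA-depleted RNA-Seq in 9 libraries. The authors deposited unnormalized read counts for each Ensembl gene. The paper's methods name Flexbar and STAR with GRCm39, and the submitters' processing notes name HISAT2 2.2.1, SAMtools 1.13 and HTSeq 0.11.3. Whether counting used the strand and how multi-mapped reads were handled is not given in the sources used here. Symbols were matched for 52083 of 55416 identifiers. Exonic lengths and overlaps came from a GRCm38 annotation, and promoter sequences from RefSeq on GRCm38.p6.

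The analysis used edgeR 4.0.16 and limma 3.58.1 under R 4.3.3. Genes were kept by filterByExpr (0.238 CPM, which is 10 counts in the median library, in at least 3 libraries), scaled by TMM and fitted once over all libraries by group alone, with edgeR's quasi-likelihood test, a prior count of 0.125 and Benjamini-Hochberg adjustment. Intervals are 95%. The common dispersion was 0.00376, a biological coefficient of variation of 6.13%. The pipeline was tested on simulated data. DESeq2 1.42.0, the tool of the study's methods, was an alternative, as were a prior count of 2, other scalings, a replicate block, no filter, no fold-change minimum, fits of the 6 libraries in question, and leaving out each library.

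The members and lists were chosen with earlier results of these data known. From each list the text names called genes with the 4 largest absolute log2 fold changes in TGF-β over Stem and in Both over TGF-β and a mean of at least 100 normalized counts; profiles were compared with a prior count of 2. Animal, siRNA, qPCR and CUT&RUN experiments were not analysed here.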

Additional observations from a re-analysis of the deposited data

How the results depend on the processing

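Without the fold-change minimum, 11158 genes in TGF-β over Stem, 1327 in Both over TGF-β and 10900 in Both over Stem were called, with 7, 5 and 8 members. Without the filter, 163 genes were called between Both and TGF-β. Leaving out 1 library gave 3826 to 3944, 68 to 126 and 3435 to 3618 genes in the 3 comparisons, and 4, 2 to 3 and 4 to 6 members. DESeq2 called 3685, 85 and 3313 genes.

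Of 830 refitted log2 fold changes of the 52 member and list values, 821 kept their direction and their side of the call, 4 lost the call, 4 gained it and 1 reversed. Refits in which the filter dropped a gene are not among the 830. This was so for *Acan* in the fit of the Both and Stem libraries alone, where 4 members were called and *Acan* was not tested. The reversal was *Sox9* in TGF-β over Stem, at 0 with total counts; the scaling moved the median of all genes to -0.12. Total counts also moved *Sox5* in Both over Stem to -1.04, past the minimum, and *Sox6* in Both over Stem to 0.90, and a prior count of 2 moved the latter to 0.94, both short of it. The other causes were not tested. *Acan* in Both over TGF-β ran from -2.13 to -1.67 and *Tnmd* from -2.17 to -1.84 when 1 library was left out. Fitted folds of *Acan* against Stem depend on the prior count, with 4.44 at a prior count of 2. At an adjusted p alone, *Sox9* in Both over TGF-β lost its call under 6 of 16 alternatives, *Comp* in TGF-β over Stem under 5 and in Both over Stem under 4, and *Cilp* in Both over TGF-β under 3. *Mkx* in Both over TGF-β gained one under 6, *Tnmd* in TGF-β over Stem under 4, and *Sox9* under 3 in TGF-β over Stem and under 3 in Both over Stem.

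Libraries of a group share replicate numbers with the other groups. Deviations of same-numbered libraries correlated at 0.29, 0.40 and 0.07 between TGF-β and Stem, 0.20, 0.49 and 0.08 between Both and TGF-β, and 0.10, 0.46 and -0.05 between Both and Stem. For differently numbered libraries the values ran from -0.39 to 0.17, from -0.37 to 0.17 and from -0.46 to 0.36. A shared source of same-numbered libraries is therefore possible, most of all for replicate 2, but the sources used here do not state one. The main fit used group alone, and a replicate block was an alternative. With a replicate block, 3736, 120 and 3394 genes were called, with 4, 2 and 5 members, and no member changed its call. At an adjusted p alone the block added calls of *Sox9* and *Tnmd* in TGF-β over Stem, *Mkx* in Both over TGF-β and *Sox9* in Both over Stem. Depth limited *Hapln1* in all groups and *Acan*, *Scx* and *Cilp* in Stem.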

Other observations

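Some related genes that stand outside the naming rule because their mean was under 100 normalized counts were chosen after their values were seen. *Col10a1*, the collagen gene of hypertrophic cartilage, had 1.79 ± 0.648 normalized counts in the Stem group, at the limit of detection, 72.2 ± 4.63 in the TGF-β group and 47.5 ± 8.37 in the Both group (SD, n = 3). Against 3 counts per library its mean in TGF-β was at least 22.2-fold higher than in Stem, a limit on the Stem side only. Like *Ihh* among the genes of its list that rose, *Col10a1* passed the filter through the treated libraries alone. The list of hypertrophic cartilage and bone genes that holds it gave 5 rises and 1 fall among 12 tested of 18 genes in TGF-β over Stem, with a median log2 fold change of -0.02, and 0 calls between Both and TGF-β by edgeR's test (2 with an adjusted p below 0.05 alone). Of all tested genes, 10.6% were called higher and 14.5% lower in TGF-β over Stem. Between Both and TGF-β, 0.632% of all were called, and 8.92% passed the adjusted p alone. *Spp1*, which encodes osteopontin, rose with a log2 fold change of 1.78. The fall was *Phex*, a gene of mineralizing cells, from 151 ± 6.52 to 9.57 ± 1.07 normalized counts, a log2 fold change of -3.97. *Runx2*, *Mef2c* and *Pth1r* were lower at an adjusted p below 0.05 alone, with log2 fold changes of -0.38, -0.49 and -0.99. *Bcan*, which encodes brevican, a brain relative of aggrecan, moved the other way from *Acan* with PFI-3: it had 2.85 ± 0.601 normalized counts in the Stem group, then 9.52 ± 1.32 with TGF-β1 and 47.9 ± 14.8 with PFI-3 as well, a log2 fold change of 2.32 for Both over TGF-β. *Bcan* had 0 Stem libraries, 1 TGF-β library and 3 Both libraries above the filter's minimum. It was therefore tested mainly through the group where it was high, and its rise is a description only. *Cilp2*, the paralog of *Cilp*, had group means of 5.01 ± 2.27, 62.0 ± 13.3 and 72.7 ± 18.8 in the same order, and its Both and TGF-β values overlapped.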
